A study of Homo sapiens with 18 samples.

Results

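The TGF-beta pathway and feedback genes described here are 34 named genes, 34 of the 35579 genes that could be summed from the deposited transcript tables: 3 ligands, 4 latent binding proteins, 6 receptors, 2 co-receptors, 7 SMADs, 2 SMAD ubiquitin ligases, 3 SMAD corepressors, 3 membrane feedback inhibitors, TGFBI and 3 ID proteins. They were chosen by name, with earlier results of these data known. All 34 were present in the tables and 32 passed the filter on low counts, among 13527 genes tested. ACVRL1 and LDLRAD4, which stayed between 0.0267 and 1.21 and between 0 and 0.874 transcripts-per-million (TPM), did not pass.

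The 18 libraries are poly(A)-selected RNA-seq of hiF-T cells, a human line derived from BJ skin fibroblasts that carries inducible hTERT, the catalytic subunit of telomerase, with the genotype given as WT. The labels do not say whether hTERT was induced. In 4 libraries CDKN1A (p21, an inhibitor of cyclin-dependent kinases) was knocked down with guides 1 and 2, in 4 libraries KDM1A (LSD1, a histone H3 lysine demethylase) with guides 2 and 3, and in 6 libraries SPP1 (osteopontin, a secreted phosphoprotein) with guides 1, 2 and 3. The 4 control libraries carried control guides 1 and 2 of the backbone, and each guide had 2 libraries titled as biological replicates. All the groups are of this 1 line and carry a guide, the method of knockdown is not stated, and it is not said whether replicates come from separate cultures. P-values therefore measure the spread between these libraries, which may be technical. In the tests of pooled groups every library enters as an independent replicate, although the libraries are nested in 2 or 3 guides per group. The fitted coefficient of variation between libraries was 6.92% within guides and 9.32% within groups. The p-values of pooled groups may therefore be too small.

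TGF-beta ligands are secreted in a latent complex held in the matrix by latent binding proteins, and once released they bring together a type II and a type I receptor kinase that phosphorylates SMAD2 and SMAD3. BMP ligands of the same superfamily act on SMAD1 and SMAD5 through related receptors, and both branches share SMAD4. The SMADs induce their own inhibitors, among them SMAD7, SMAD6, SKIL and PMEPA1, which close a negative feedback loop. In dermal fibroblasts the pathway is best known for driving matrix synthesis and the contractile state.

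SMAD3 and SMAD4 bind the letters GTCT or AGAC, called here the SMAD box. Of 5 feedback or target genes, SMAD7, SKIL, PMEPA1 and TGFBI were each called against control in a pooled knockdown below, as were other members. SMAD6 was not, but holds the palindrome GTCTAGAC. The promoters of these 5 are shown. Each is the 250 bases before the start that RefSeq annotates on GRCh38.p14, written 5′ to 3′ on the gene's own strand, with every SMAD box in capitals. SMAD7 lies on the minus strand (chr18:48950966-48951215), SMAD6 on the plus strand (chr15:66701986-66702235), SKIL on the plus strand (chr3:170357465-170357714), PMEPA1 on the minus strand (chr20:57711473-57711722) and TGFBI on the plus strand (chr5:136028738-136028987).
SMAD7 promoter: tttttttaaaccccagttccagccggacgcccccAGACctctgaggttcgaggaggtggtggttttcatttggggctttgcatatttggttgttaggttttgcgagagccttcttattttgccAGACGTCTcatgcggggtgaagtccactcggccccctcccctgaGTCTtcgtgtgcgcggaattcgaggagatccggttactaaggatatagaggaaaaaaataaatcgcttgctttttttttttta
SMAD6 promoter: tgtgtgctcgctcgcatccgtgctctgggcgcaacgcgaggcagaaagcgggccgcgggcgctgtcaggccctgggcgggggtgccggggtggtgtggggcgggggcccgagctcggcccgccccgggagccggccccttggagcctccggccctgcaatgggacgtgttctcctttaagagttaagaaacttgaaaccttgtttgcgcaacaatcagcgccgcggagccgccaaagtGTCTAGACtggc
SKIL promoter: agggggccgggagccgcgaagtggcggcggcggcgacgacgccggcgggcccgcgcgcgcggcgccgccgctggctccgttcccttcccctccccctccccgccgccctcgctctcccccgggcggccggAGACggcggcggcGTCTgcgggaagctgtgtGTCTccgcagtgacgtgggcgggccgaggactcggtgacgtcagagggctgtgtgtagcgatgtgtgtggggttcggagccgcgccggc
PMEPA1 promoter: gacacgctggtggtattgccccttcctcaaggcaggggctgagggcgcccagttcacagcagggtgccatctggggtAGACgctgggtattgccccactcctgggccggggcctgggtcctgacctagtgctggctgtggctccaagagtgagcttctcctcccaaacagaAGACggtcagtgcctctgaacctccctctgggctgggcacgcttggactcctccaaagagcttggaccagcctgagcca
TGFBI promoter: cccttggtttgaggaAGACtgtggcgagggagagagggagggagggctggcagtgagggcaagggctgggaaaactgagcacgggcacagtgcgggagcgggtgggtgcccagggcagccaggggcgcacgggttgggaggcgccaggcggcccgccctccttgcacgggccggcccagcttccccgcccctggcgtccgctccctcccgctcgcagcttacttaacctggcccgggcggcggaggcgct

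SMAD7 held 4 SMAD boxes, of which an AGAC and a GTCT stood next to each other 127 bases before the start, SKIL held 3, PMEPA1 and SMAD6 held 2 each and TGFBI held 1. The 2 boxes of SMAD6 overlapped the palindrome GTCTAGAC that began 12 bases before its start. RefSeq promoters were matched for 32 of the 34 genes, not for SKI or ACVRL1. Searched on both strands, GTCT or AGAC stood in 26 of these 32 (81.2%) and in 77.7% of all 27326 promoters of this length, GTCTAGAC in 1 of 32 and in 0.183% of all, and GGCGCC, a GC-rich letter string that SMADs can also bind, in 10 of 32 (31.2%) and in 16% of all. GGCGCC cannot overlap the SMAD box. SKIL, PMEPA1 and TGFBI each held 1 GGCGCC. These matches describe the letters of the windows and were set against no binding data.

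The libraries held 11907197 to 17016094 estimated counts, and 12478 to 13161 genes reached 10 counts. All 12 fibroblast markers were detected, with a summed level of 9274 to 10984 TPM led by VIM. Of the 8 keratinocyte markers KRT1 was at 0 and KRT5 under 1 TPM in every library, while KRT10 averaged 162 TPM and led summed levels of 144 to 198 TPM. Of the 8 leukocyte markers NKG7 was at 0 and PTPRC, CD3E and LYZ were among the 5 under 1 TPM, while CD68 averaged 76.4 TPM and led summed levels of 66.2 to 101 TPM. Of the 8 endothelial markers PECAM1, CDH5, VWF, KDR and CLDN5 stayed under 1 TPM, while TEK averaged 26.3 TPM. TYR, DCT and SOX10 of the 7 melanocyte markers stayed under 1 TPM, and their sum reached 6.33 TPM. The targeted mRNA stood at 58.2% of control in CDKN1A knockdown (adjusted p = 0.00394), at 52.9% in KDM1A knockdown (adjusted p = 7.26e-06) and at 61.4% in SPP1 knockdown, where it did not pass the test (adjusted p = 0.0696) and its libraries overlapped the controls. SPP1 mRNA was at 39.6% of control with SPP1 guide 1 (adjusted p = 0.00827), 79.6% with guide 2 (adjusted p = 0.443) and 66.8% with guide 3 (adjusted p = 0.144). In such bulk RNA, fewer cells of a type and less RNA per cell cannot be told apart. Levels between genes are compared in TPM, which correct for transcript length, and 1 gene between libraries in counts-per-million (CPM) after scaling by the trimmed mean of M values.

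TGFBI, a secreted matrix protein named for its induction by TGF-beta, was by far the most abundant of the 34 mRNAs, with 1581 ± 153 TPM in control libraries (mean ± SD, n = 4). SMURF2, ID1, ENG, ID3 and ID2 followed with control means of 262, 215, 208, 207 and 184 TPM, and the SDs of neighbours in this order overlapped. Among the ligands TGFB1 led with 163 ± 15.8 TPM, and TGFB2 (6.03 ± 1.18 TPM) and TGFB3 (1.41 ± 0.265 TPM) were far lower. The latent binding proteins LTBP2 (162 TPM) and LTBP1 (152 TPM) stood beside TGFB1, above LTBP3 (82.5 TPM) and LTBP4 (65.8 TPM). The type II receptor TGFBR2 (97.9 ± 8.28 TPM) exceeded the type I receptor TGFBR1 (11.4 ± 1.09 TPM), and of the inhibitory SMADs SMAD7 (45.1 ± 5.48 TPM) exceeded SMAD6 (12.6 ± 2.37 TPM). PMEPA1 (7.46 ± 3.96 TPM) was among the least abundant members, as the plot of levels shows.

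**Figure D1:**
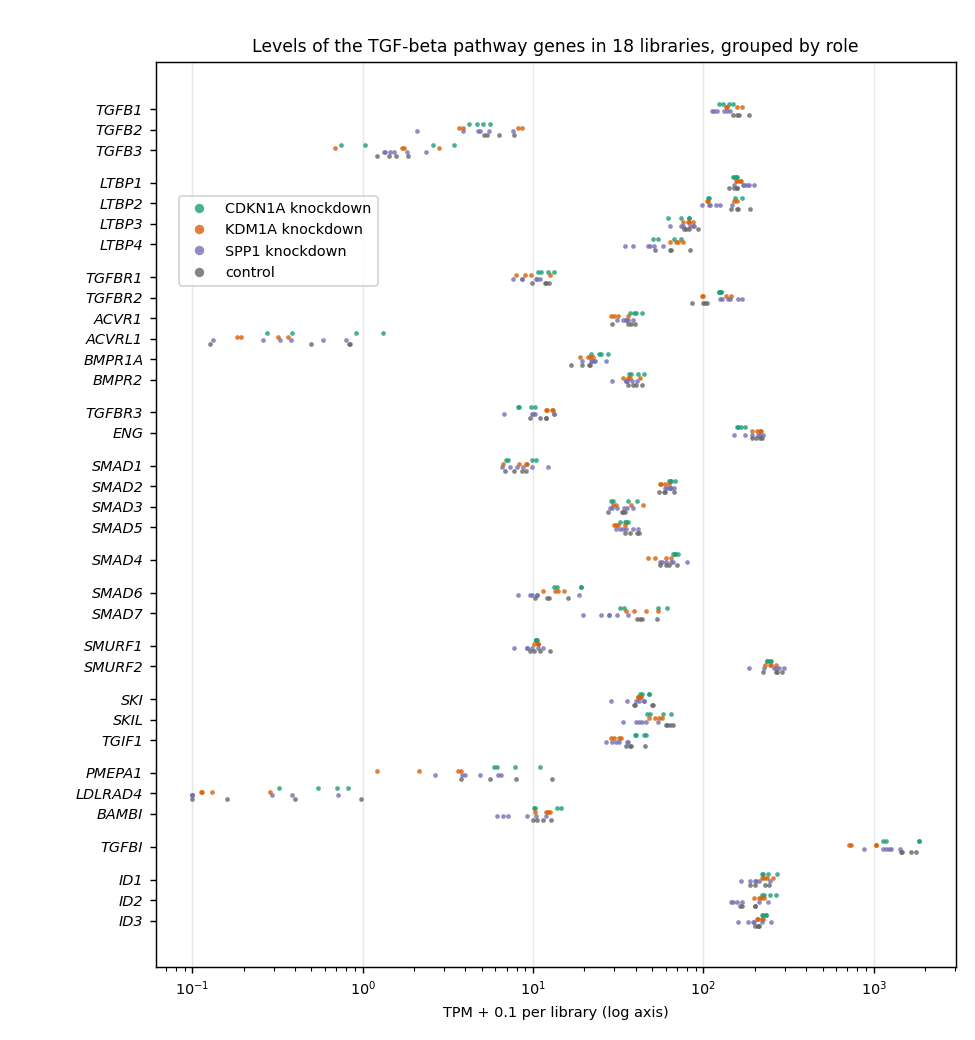
Level of each of the 34 genes in TPM plus 0.1 on a log axis, 1 point per library, coloured by group and ordered by role. TGFBI lies farthest right, at 714 to 1846 TPM, with a control mean of 1581 TPM, whereas LDLRAD4 and ACVRL1 lie near the low end, with control means of 0.308 and 0.473 TPM.

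Against control, few of the 32 tested genes passed edgeR's quasi-likelihood test at an adjusted p under 0.05 in CDKN1A knockdown, more in KDM1A knockdown and most in SPP1 knockdown. In CDKN1A knockdown 1 gene was lower, the co-receptor ENG, which is 3.12% of the 32 beside 2.00% of all genes tested. In KDM1A knockdown 4 were lower, PMEPA1, TGFBI, TGFBR1 and TGIF1, which is 12.5% beside 9.06% of all genes. None was higher there by edgeR or DESeq2, and 1 was higher at an unadjusted p under 0.05. In SPP1 knockdown 5 were lower (SMAD7, SKIL, TGFB1, TGIF1 and TGFBR1) and 2 higher (TGFBR2 and LTBP1), 21.9% beside 5.46% of all genes. Split by direction, 0.917% of all genes were lower and 1.09% higher in CDKN1A knockdown, 3.73% and 5.33% in KDM1A knockdown, and 3.06% and 2.40% in SPP1 knockdown. The members' shares in CDKN1A and KDM1A knockdown were thus near the background, except that the KDM1A calls were all lower, and that in SPP1 knockdown was above it. As the members were chosen with earlier results of these data known, these shares are a description and not a test.

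The median log2 fold change of the 32 genes was 0.02 in CDKN1A knockdown, -0.04 in KDM1A knockdown and -0.11 in SPP1 knockdown, beside -0.004, -0.011 and 0.004 for all genes tested. In SPP1 knockdown 25 of the 32 lay below 0, where 48.9% of all genes did. The CPM of the knockdown and control libraries did not overlap for 7 members in CDKN1A knockdown (21.9%, beside 13.1% of all genes), 6 in KDM1A knockdown (18.8%, beside 15.7%) and 9 in SPP1 knockdown (28.1%, beside 6.34%). The 3 knockdowns share the same 4 control libraries, so their values are given side by side and no count of like directions is drawn from them. With control guide 1 left out, 0 members and 7 of all genes were called in SPP1 knockdown, against 738 of all genes with it, whereas without control guide 2 it was 5 members and 671 of all genes. Without control guide 1 replicate 1 or replicate 2 it was 3 or 2 members, and without SPP1 guide 2 it was 2. In CDKN1A knockdown the count was 0 when 1 of 5 libraries was left out, namely control guide 1 replicate 1 or 2, control guide 2 replicate 1, CDKN1A guide 1 replicate 2 or CDKN1A guide 2 replicate 2. It was 3 without SPP1 guide 3 replicate 1. The summed endothelial markers were at 22.2 to 30.5 TPM in SPP1 knockdown and 31.8 to 38.4 TPM in control libraries, set almost wholly by TEK, while 5 of the 8, PECAM1 and CDH5 included, stayed under 1 TPM in all 18. The summed keratinocyte markers were at 172 to 181 TPM in KDM1A knockdown and 147 to 171 TPM in control libraries, led by KRT10, with KRT1 at 0.

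**Figure D2:**
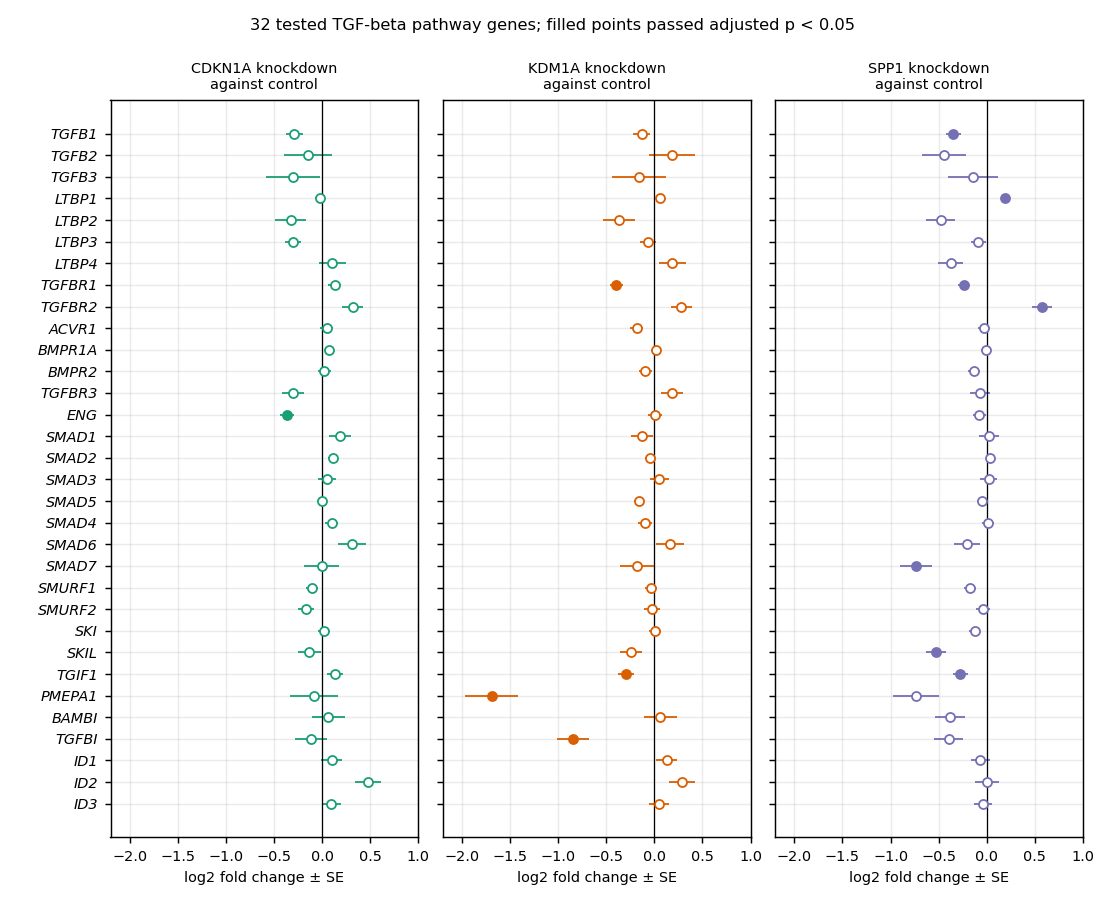
Log2 fold change with its standard error of each of the 32 tested genes in CDKN1A, KDM1A and SPP1 knockdown, each against the 4 control libraries, with filled points for an adjusted p under 0.05. PMEPA1 at -1.69 in KDM1A knockdown lies farthest from 0, and TGFBR2 at 0.58 in SPP1 knockdown is the highest filled point.

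Of the ligands, TGFB1 was lower in SPP1 knockdown, and TGFB2 differed between the KDM1A guides. TGFB1 had 211 and 188 CPM with CDKN1A guide 1, 232 and 221 with CDKN1A guide 2, 265 and 257 with KDM1A guide 2 and 215 and 215 with KDM1A guide 3. It spanned 175 to 228 CPM with a median of 205 over the 6 SPP1 knockdown libraries, against 272 and 287 with control guide 1 and 247 and 236 with control guide 2. All CDKN1A and all SPP1 knockdown libraries lay below every control library, as did KDM1A guide 3, and KDM1A guide 2 lay within the control range. TGFB1 fell in SPP1 knockdown (log2 fold change -0.35 ± 0.08 SE, adjusted p = 0.018) and did not pass in CDKN1A (log2 fold change -0.29, adjusted p = 0.0932) or KDM1A knockdown (log2 fold change -0.13, adjusted p = 0.415). The SPP1 call was lost without control guide 1 replicate 1 (adjusted p = 0.0557), without its replicate 2 (adjusted p = 0.09) and without SPP1 guide 2 (adjusted p = 0.0802). TGFB1 shares 215 exonic bases with HNRNPUL1 on the opposite strand. Whether strand was used in counting is not stated.

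TGFB2 had 13.1 and 12.6 CPM with CDKN1A guide 1, 12.6 and 12.8 with CDKN1A guide 2, 22.01 and 22.8 with KDM1A guide 2 and 10.7 and 8.86 with KDM1A guide 3. It spanned 6.75 to 12.3 CPM with a median of 11.3 over the 6 SPP1 knockdown libraries, against 11.1 and 12.2 with control guide 1 and 16.8 and 16.5 with control guide 2. TGFB2, the second ligand, was above every control library with KDM1A guide 2 and below every one with KDM1A guide 3. Guide 3 against guide 2 gave log2 fold change -1.20 ± 0.17 SE, adjusted p = 0.000486, and against control KDM1A guide 2 rose (log2 fold change 0.68, adjusted p = 0.00351) while KDM1A guide 3 fell (log2 fold change -0.52, adjusted p = 0.0413), so that KDM1A knockdown as a whole was near 0 (log2 fold change 0.18, adjusted p = 0.719). TGFB2 shares 1371 exonic bases with TGFB2-OT1 on the same strand. TGFB3, the third ligand, stayed between 0.590 and 3.32 TPM and was called in no comparison of groups or guides.

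Of the latent binding proteins, which anchor the latent ligand in the matrix, LTBP1 was higher in SPP1 knockdown and LTBP2 and LTBP4 differed between guides. LTBP1 had 482 and 479 CPM with CDKN1A guide 1, 474 and 475 with CDKN1A guide 2, 492 and 506 with KDM1A guide 2 and 509.9 and 505 with KDM1A guide 3. It spanned 515 to 622 CPM with a median of 548 over the 6 SPP1 knockdown libraries, against 469.6 and 470.01 with control guide 1 and 504 and 491 with control guide 2. Every SPP1 knockdown library lay above every control library, while CDKN1A knockdown lay within the control range. LTBP1 rose in SPP1 knockdown by a small amount (log2 fold change 0.19 ± 0.05 SE, adjusted p = 0.022), a call that was lost without either library of control guide 1 (adjusted p = 0.0752 and 0.09), without SPP1 guide 2 (adjusted p = 0.0768) and in a fit of these 2 groups alone (adjusted p = 0.0987).

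LTBP2 had 506 and 493 CPM with CDKN1A guide 1, 789 and 729 with CDKN1A guide 2, 732 and 766 with KDM1A guide 2 and 484 and 457 with KDM1A guide 3. It spanned 478 to 664 CPM with a median of 559.6 over the 6 SPP1 knockdown libraries, against 806 and 882 with control guide 1 and 749 and 717 with control guide 2. LTBP2, a microfibril protein that unlike its relatives does not bind the latent ligand, was low with CDKN1A guide 1, with KDM1A guide 3 and in all 6 SPP1 knockdown libraries, and lay within the control range with CDKN1A guide 2 and KDM1A guide 2. CDKN1A guide 2 was higher than guide 1 (log2 fold change 0.60 ± 0.08 SE, adjusted p = 0.000918) and KDM1A guide 3 lower than guide 2 (log2 fold change -0.67 ± 0.08 SE, adjusted p = 8.45e-05). With the guides pooled LTBP2 passed in no knockdown (SPP1 log2 fold change -0.48, adjusted p = 0.0666).

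LTBP4 had 98.4 and 96.4 CPM with CDKN1A guide 1, 131 and 122 with CDKN1A guide 2, 129 and 134 with KDM1A guide 2 and 111 and 100.01 with KDM1A guide 3. It spanned 59.6 to 95.3 CPM with a median of 82.6 over the 6 SPP1 knockdown libraries, against 116 and 118 with control guide 1 and 93.4 and 87.3 with control guide 2. LTBP4 was the only member called in all 4 guide comparisons, the control guides included. CDKN1A guide 2 was higher than guide 1 (log2 fold change 0.38, adjusted p = 0.0184), KDM1A guide 3 lower than guide 2 (log2 fold change -0.32, adjusted p = 0.0197), SPP1 guide 1 lower than guides 2 and 3 (log2 fold change -0.45, adjusted p = 0.0027) and control guide 2 lower than control guide 1 (log2 fold change -0.38, adjusted p = 0.023). It passed in no pooled knockdown against control. LTBP3, which also binds the latent ligand, ranged over 108 to 156 CPM and passed only with CDKN1A guide 1 against control (log2 fold change -0.38, adjusted p = 0.00551).

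The 2 TGF-beta receptors moved in opposite directions in SPP1 knockdown. TGFBR1 had 33.5 and 38.1 CPM with CDKN1A guide 1, 37.5 and 33.6 with CDKN1A guide 2, 22.96 and 24.1 with KDM1A guide 2 and 26.8 and 25.002 with KDM1A guide 3. It spanned 26.3 to 28.6 CPM with a median of 27.95 over the 6 SPP1 knockdown libraries, against 35.1 and 34.3 with control guide 1 and 31.98 and 28.9 with control guide 2. Every KDM1A and every SPP1 knockdown library lay below every control library, and CDKN1A knockdown overlapped them. TGFBR1, the type I kinase that phosphorylates SMAD2 and SMAD3, fell in KDM1A knockdown (log2 fold change -0.40 ± 0.07 SE, adjusted p = 0.000879, 75.9% of control) and in SPP1 knockdown (log2 fold change -0.24 ± 0.06 SE, adjusted p = 0.0302). The KDM1A call held under 32 of 33 alternatives and was lost with an offset for transcript length (-0.24, adjusted p = 0.379). The share of the gene's TPM assigned to 1 isoform, TGFBR1-209, ran over 6.97% to 62.6% between libraries. The SPP1 call was lost in 10 of 33 alternatives. Single libraries whose loss ended it were control guide 1 replicate 1 (adjusted p = 0.101), control guide 1 replicate 2 (adjusted p = 0.122), control guide 2 replicate 1 (adjusted p = 0.0562) and SPP1 guide 3 replicate 1 (adjusted p = 0.0651). It was also lost without control guide 1 as a whole (-0.14, adjusted p = 0.417) and without SPP1 guide 2 or 3 (adjusted p = 0.064 and 0.0984). The same held with no filter (adjusted p = 0.0688), in a fit of these 2 groups alone (adjusted p = 0.0621) and with the length offset (adjusted p = 0.257).

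TGFBR2 had 366 and 355 CPM with CDKN1A guide 1, 349 and 348 with CDKN1A guide 2, 288 and 289 with KDM1A guide 2 and 412 and 391 with KDM1A guide 3. It spanned 357 to 483 CPM with a median of 436 over the 6 SPP1 knockdown libraries, against 262 and 277 with control guide 1 and 302 and 295 with control guide 2. TGFBR2, the type II kinase that binds ligand first, was above every control library in all CDKN1A and all SPP1 knockdown libraries and with KDM1A guide 3. It rose in SPP1 knockdown to 149% of control (log2 fold change 0.58 ± 0.10 SE, adjusted p = 0.00472), and did not pass in CDKN1A (log2 fold change 0.32, adjusted p = 0.141) or KDM1A knockdown (log2 fold change 0.28, adjusted p = 0.126). The SPP1 call held under every alternative except the loss of control guide 1 (0.50, adjusted p = 0.124), and within SPP1 knockdown guide 1 was lower than guides 2 and 3 (log2 fold change -0.33, adjusted p = 0.00336). The ratio of TGFBR2 to TGFBR1 in TPM was 9.35 to 11.7 in CDKN1A knockdown, 10.8 to 15.1 in KDM1A knockdown and 11.4 to 19.97 in SPP1 knockdown (median 16.1), against 7.04 to 10.2 in control libraries. Of these only CDKN1A knockdown overlapped the controls.

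The receptors of the BMP branch that were tested had small log2 fold changes in the pooled knockdowns against control. ACVR1, a type I receptor of BMP and activin ligands, ranged over 48.2 to 65.1 CPM, the type I receptor BMPR1A over 47.6 to 57.1 CPM and the type II receptor BMPR2 over 182 to 249 CPM. None of these 3 passed against control in a pooled knockdown by edgeR or DESeq2, where 2 of the 9 gene and knockdown pairs had an unadjusted p under 0.05. They had log2 fold changes of -0.18 to 0.05 for ACVR1, -0.01 to 0.07 for BMPR1A and -0.13 to 0.02 for BMPR2.

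Of the co-receptors, ENG was the 1 member called in CDKN1A knockdown. ENG had 307 and 286 CPM with CDKN1A guide 1, 317 and 284 with CDKN1A guide 2, 399 and 410.3 with KDM1A guide 2 and 377 and 357 with KDM1A guide 3. It spanned 314 to 419 CPM with a median of 369.7 over the 6 SPP1 knockdown libraries, against 373 and 396 with control guide 1 and 394 and 375 with control guide 2. All 4 CDKN1A knockdown libraries lay below every control library, while KDM1A knockdown lay around the control range. ENG (endoglin), a co-receptor best known from endothelium, fell in CDKN1A knockdown (log2 fold change -0.37 ± 0.08 SE, adjusted p = 0.0202, 77.6% of control) and was lower there with either guide. The group call was lost without CDKN1A guide 1 replicate 2 (adjusted p = 0.0682), CDKN1A guide 2 replicate 2 (adjusted p = 0.083) or any of the control libraries but guide 2 replicate 2 (adjusted p = 0.0527, 0.0564 and 0.0677). The summed endothelial markers were at 27.5 to 33.7 TPM in CDKN1A knockdown and 31.8 to 38.4 TPM in control libraries, with TEK at the top and 5 of the 8 under 1 TPM in every library. Their part in the fall of ENG was not tested.

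TGFBR3 had 34.5 and 36.2 CPM with CDKN1A guide 1, 30.1 and 28.97 with CDKN1A guide 2, 47.2 and 44.4 with KDM1A guide 2 and 44.8 and 45.04 with KDM1A guide 3. It spanned 28.4 to 46.4 CPM with a median of 36.9 over the 6 SPP1 knockdown libraries, against 35.4 and 41.03 with control guide 1 and 41.4 and 42.3 with control guide 2. TGFBR3 (betaglycan), which presents ligand to TGFBR2, was above every control library in KDM1A knockdown and below or at the low end of them in CDKN1A knockdown. Neither passed against control (log2 fold change 0.18, adjusted p = 0.372 in KDM1A and log2 fold change -0.30, adjusted p = 0.188 in CDKN1A knockdown). CDKN1A guide 2 alone was lower than control (log2 fold change -0.44, adjusted p = 0.0107), and SPP1 guide 1 was higher than SPP1 guides 2 and 3 (log2 fold change 0.43, adjusted p = 0.0138).

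The SMADs that carry the signal had small log2 fold changes in the pooled knockdowns against control. SMAD2 and SMAD3, the substrates of TGFBR1, ranged over 67.5 to 81.6 and 73.4 to 102 CPM in the 18 libraries, SMAD1 and SMAD5 of the BMP branch over 8.86 to 13.9 and 91.7 to 114 CPM, and the shared SMAD4 over 54.8 to 72.2 CPM. None of the 5 passed in any knockdown or with any guide against control by edgeR, nor in any pooled knockdown by DESeq2, and 2 of the 15 gene and knockdown pairs had an unadjusted p under 0.05. Their log2 fold changes between knockdown and control lay between -0.16 (SMAD5 in KDM1A knockdown) and 0.19 (SMAD1 in CDKN1A knockdown).

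Of the inhibitory SMADs, SMAD7 was lower in SPP1 knockdown and was split by guide in the other knockdowns. SMAD7 had 67.1 and 62.6 CPM with CDKN1A guide 1, 108 and 109 with CDKN1A guide 2, 97.6 and 92.6 with KDM1A guide 2 and 59.3 and 57.7 with KDM1A guide 3. It spanned 41.1 to 59.5 CPM with a median of 52.3 over the 6 SPP1 knockdown libraries, against 84.1 and 84.3 with control guide 1 and 92.2 and 85.99 with control guide 2. All 6 SPP1 knockdown libraries lay below every control, as did CDKN1A guide 1 and KDM1A guide 3, whereas CDKN1A guide 2 and KDM1A guide 2 lay above every control. SMAD7, which recruits ubiquitin ligases to TGFBR1, fell in SPP1 knockdown to 59.99% of control (log2 fold change -0.74 ± 0.17 SE, adjusted p = 0.0159) and in each of its guides (-0.65, -0.96 and -0.63 for guides 1, 2 and 3). That group call was lost without control guide 1 replicate 2 (adjusted p = 0.0505), without control guide 1 or 2 as a whole (adjusted p = 0.131 and 0.08) and without SPP1 guide 2 (adjusted p = 0.0739). Against control, SMAD7 fell with CDKN1A guide 1 (log2 fold change -0.42, adjusted p = 0.00266) and rose with CDKN1A guide 2 (log2 fold change 0.32, adjusted p = 0.00959), and it fell with KDM1A guide 3 (log2 fold change -0.57, adjusted p = 7.97e-05) but did not pass with KDM1A guide 2 (log2 fold change 0.13, adjusted p = 0.221). The pooled CDKN1A and KDM1A values near 0 (log2 fold changes of -0.0038 and -0.18) average these guides.

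SMAD6, which mainly restrains the BMP branch, ranged over 16.9 to 33.4 CPM and did not pass against control (0.31 in CDKN1A, 0.16 in KDM1A and -0.20 in SPP1 knockdown), although all 4 CDKN1A knockdown libraries lay above every control. SMURF2 had 478 and 478 CPM with CDKN1A guide 1, 458 and 466 with CDKN1A guide 2, 552 and 539 with KDM1A guide 2 and 503 and 485 with KDM1A guide 3. It spanned 425 to 589 CPM with a median of 514 over the 6 SPP1 knockdown libraries, against 489.5 and 532 with control guide 1 and 538 and 554 with control guide 2. SMURF2, a ubiquitin ligase that SMAD7 brings to the receptor, lay below every control library in CDKN1A knockdown, and in SPP1 knockdown above them with guide 1 and below them with guide 3. It passed in no pooled knockdown, while SPP1 guide 1 was higher than guides 2 and 3 (log2 fold change 0.30, adjusted p = 0.00252). Its relative SMURF1 ranged over 27.6 to 38.8 CPM, with 735 of its exonic bases shared with TRRAP, and passed only with SPP1 guide 3 against control (log2 fold change -0.26, adjusted p = 0.0312).

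Of the corepressors that silence SMAD targets, SKIL was lower in SPP1 knockdown and TGIF1 in SPP1 and KDM1A knockdown. SKIL had 104 and 103 CPM with CDKN1A guide 1, 136 and 141 with CDKN1A guide 2, 131 and 122 with KDM1A guide 2 and 103 and 92.2 with KDM1A guide 3. It spanned 77.3 to 105 CPM with a median of 96.01 over the 6 SPP1 knockdown libraries, against 124 and 136 with control guide 1 and 129 and 141 with control guide 2. All SPP1 knockdown libraries, CDKN1A guide 1 and KDM1A guide 3 lay below every control. SKIL (SnoN) fell in SPP1 knockdown to 69.4% of control (log2 fold change -0.53 ± 0.11 SE, adjusted p = 0.0095), a call that was lost only without control guide 1 or control guide 2 as a whole (adjusted p = 0.0978 and 0.056). Each SPP1 guide passed against control (-0.39, -0.58 and -0.61 for guides 1, 2 and 3), as did CDKN1A guide 1 (-0.36) and KDM1A guide 3 (-0.44).

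TGIF1 had 26.7 and 26.8 CPM with CDKN1A guide 1, 30.3 and 32.2 with CDKN1A guide 2, 21.1 and 23.7 with KDM1A guide 2 and 20.1 and 21.2 with KDM1A guide 3. It spanned 19.1 to 24.5 CPM with a median of 21.9 over the 6 SPP1 knockdown libraries, against 26.5 and 27.9 with control guide 1 and 24.7 and 26.6 with control guide 2. All KDM1A and SPP1 knockdown libraries lay below every control library, by a few CPM. TGIF1, a homeodomain corepressor, fell in KDM1A knockdown (log2 fold change -0.29 ± 0.08 SE, adjusted p = 0.0292) and in SPP1 knockdown (log2 fold change -0.27 ± 0.08 SE, adjusted p = 0.0391), and did not pass in CDKN1A knockdown (log2 fold change 0.13, adjusted p = 0.442). Both calls stood near the threshold: of 33 alternatives the KDM1A call was lost in 12, 6 of them single libraries left out (control guide 1 replicates 1 and 2, control guide 2 replicate 2, KDM1A guide 2 replicate 1 and both of KDM1A guide 3, adjusted p up to 0.102), and the SPP1 call in 14, 7 of them single libraries (the same 3 control libraries, both of SPP1 guide 1, SPP1 guide 2 replicate 1 and SPP1 guide 3 replicate 1, adjusted p up to 0.145). SKI, the founding member of SKIL's family, ranged over 122 to 164 CPM and passed in no comparison.

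PMEPA1 and TGFBI, both induced by TGF-beta in many cells, had the lowest values against control in KDM1A knockdown. PMEPA1 had 8.21 and 7.98 CPM with CDKN1A guide 1, 13.8 and 11.3 with CDKN1A guide 2, 3.09 and 3.93 with KDM1A guide 2 and 3.35 and 3.08 with KDM1A guide 3. It spanned 4.23 to 9.33 CPM with a median of 6.82 over the 6 SPP1 knockdown libraries, against 14.2 and 15.3 with control guide 1 and 7.99 and 6.14 with control guide 2. In CPM the 4 KDM1A knockdown libraries lay together below every other library, while the control guides stood apart, guide 2 near SPP1 knockdown. In TPM the KDM1A knockdown libraries, at 1.12 to 3.69, overlapped control guide 2 replicate 2 (3.68) and SPP1 guide 3 replicate 1 (2.55). The share of the gene's TPM assigned to the isoform PMEPA1-204 ran over 2.59% to 72.1% between libraries. PMEPA1, a membrane protein that sequesters SMAD2 and SMAD3, fell in KDM1A knockdown to 30.9% of control (log2 fold change -1.69 ± 0.28 SE, adjusted p = 0.000632), and with KDM1A guide 2 (-1.53) and guide 3 (-1.67). This call held under all 33 alternatives, with log2 fold changes of -2.11 to -1.07. In SPP1 knockdown PMEPA1 did not pass (log2 fold change -0.74, adjusted p = 0.0756), and control guide 2 against control guide 1 was farther from 0 (log2 fold change -1.05, adjusted p = 0.0537). PMEPA1 rests on a mean of 108 estimated counts a library, and 343 of its exonic bases overlap NKILA on the opposite strand, which is not among the genes in the tables.

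TGFBI had 1859 and 1825 CPM with CDKN1A guide 1, 2922 and 2875 with CDKN1A guide 2, 1667 and 1718 with KDM1A guide 2 and 1165 and 1162 with KDM1A guide 3. It spanned 1439 to 2270.3 CPM with a median of 1985 over the 6 SPP1 knockdown libraries, against 2834 and 2754 with control guide 1 and 2323 and 2361 with control guide 2. Both KDM1A guides and all SPP1 knockdown libraries lay below every control library, CDKN1A guide 1 did too and CDKN1A guide 2 did not. TGFBI fell in KDM1A knockdown to 55.6% of control (log2 fold change -0.85 ± 0.17 SE, adjusted p = 0.00269), with guide 3 lower than guide 2 (log2 fold change -0.54, adjusted p = 0.0102). The call was lost without KDM1A guide 3 (-0.59, adjusted p = 0.0572) and without control guide 1 (-0.71, adjusted p = 0.0701). TGFBI did not pass in SPP1 knockdown (log2 fold change -0.40, adjusted p = 0.135), and CDKN1A guide 2 was higher than guide 1 (log2 fold change 0.65, adjusted p = 0.00799).

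BAMBI had 9.91 and 9.92 CPM with CDKN1A guide 1, 14.04 and 13.1 with CDKN1A guide 2, 12.4 and 12.7 with KDM1A guide 2 and 9.96 and 11.7 with KDM1A guide 3. It spanned 6.07 to 11.6 CPM with a median of 8.41 over the 6 SPP1 knockdown libraries, against 13.3 and 9.54 with control guide 1 and 11.5 and 10.5 with control guide 2. BAMBI, a receptor-like protein that lacks the kinase domain and competes with type I receptors, was lowest with SPP1 guide 2. SPP1 guide 1 was higher than guides 2 and 3 (log2 fold change 0.58 ± 0.13 SE, adjusted p = 0.0223), and SPP1 guide 2 fell against control (log2 fold change -0.84, adjusted p = 0.00171). No pooled knockdown passed. LDLRAD4, a relative of PMEPA1, was at 0.874 TPM or less in every library. It was not tested.

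The ID proteins, which block basic helix-loop-helix factors and are typical BMP targets, did not pass in any pooled knockdown by edgeR, while DESeq2 called 1 of the 9 gene and knockdown pairs and 1 had an unadjusted p under 0.05. ID2 had 128 and 119 CPM with CDKN1A guide 1, 144 and 146 with CDKN1A guide 2, 115 and 111 with KDM1A guide 2 and 121 and 122 with KDM1A guide 3. It spanned 78.7 to 129.7 CPM with a median of 92.1 over the 6 SPP1 knockdown libraries, against 87.9 and 75.4 with control guide 1 and 108 and 114 with control guide 2. All CDKN1A knockdown libraries lay above every control, and KDM1A and SPP1 knockdown overlapped them. ID2 had a log2 fold change of 0.48 in CDKN1A knockdown (adjusted p = 0.0714), and it rose with CDKN1A guide 1 (log2 fold change 0.38, adjusted p = 0.0388), CDKN1A guide 2 (log2 fold change 0.61, adjusted p = 0.00155) and KDM1A guide 3 (log2 fold change 0.35, adjusted p = 0.0287) taken singly. SPP1 guide 1 was lower than guides 2 and 3 (log2 fold change -0.41, adjusted p = 0.039), a call lost in 14 of 22 alternatives, 13 of them single libraries left out, 10 of these from other groups (adjusted p up to 0.254). ID1 ranged over 86.4 to 141 CPM and ID3 over 74.7 to 121 CPM, and neither passed in any comparison.

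**Figure D3:**
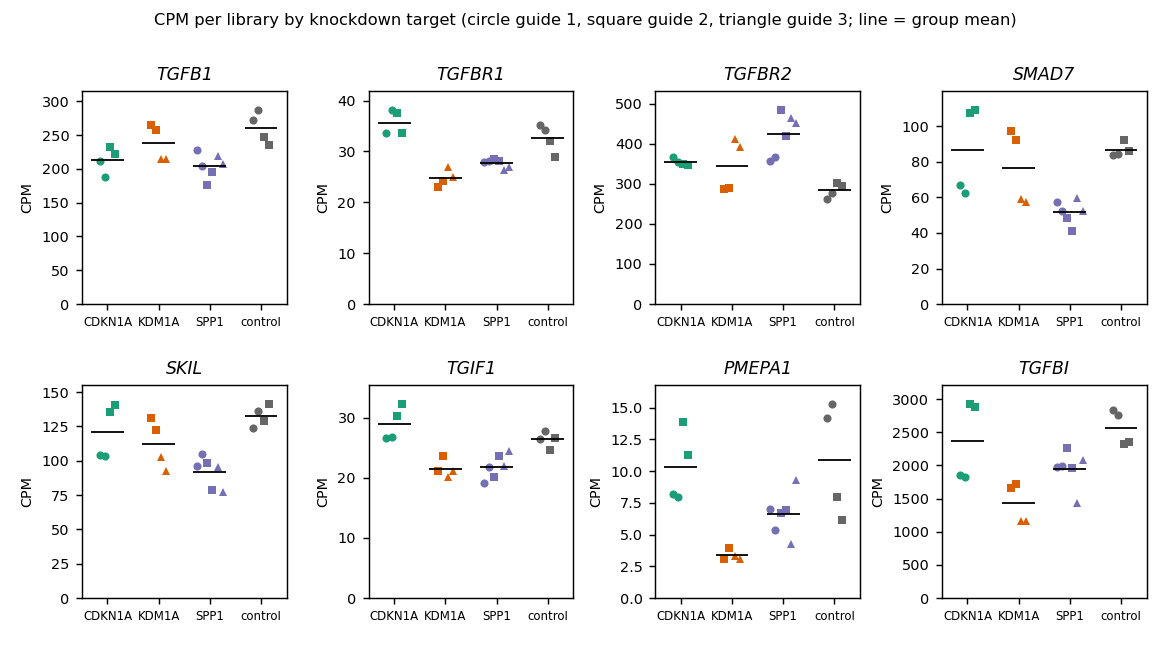
CPM per library of 8 genes in CDKN1A, KDM1A and SPP1 knockdown and control, 1 point per library with the marker giving the guide and a line at the group mean. SMAD7 at 41.1 to 59.5 CPM in SPP1 knockdown lies below every control library, and in CDKN1A and KDM1A knockdown its guides fall on either side of the controls.

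Set against each other, the knockdowns gave these counts of members. Between CDKN1A and KDM1A knockdown 8 members were called, 25% beside 14.9% of all genes. PMEPA1 (log2 fold change 1.61, adjusted p = 0.000598), TGFBI (log2 fold change 0.73, adjusted p = 0.00551), TGFBR1 (log2 fold change 0.53, adjusted p = 3.42e-05), TGIF1 (0.43), ACVR1 (0.23) and SMAD2 (0.16) were higher in CDKN1A knockdown, and TGFBR3 (-0.48) and ENG (-0.37) lower. Between CDKN1A and SPP1 knockdown 9 were called, 28.1% beside 12.1%. SMAD7 (log2 fold change 0.73, adjusted p = 0.00716), SMAD6 (log2 fold change 0.51, adjusted p = 0.0169), SKIL (0.39), TGIF1 (0.41), TGFBR1 (0.37), ID2 (0.48) and LTBP4 (0.48) were higher in CDKN1A knockdown, and ENG (-0.29) and LTBP1 (-0.21) lower. Between KDM1A and SPP1 knockdown 3 were called, 9.38% beside 11.9%, so no more than in the background: SMAD7 (log2 fold change 0.56, adjusted p = 0.0334) and LTBP4 (log2 fold change 0.56, adjusted p = 0.00774) higher and PMEPA1 (log2 fold change -0.96, adjusted p = 0.025) lower in KDM1A knockdown.

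Several of these rest on 1 guide. The count between KDM1A and SPP1 knockdown was 1 without either library of KDM1A guide 2, 5 or 6 without KDM1A guide 3 replicate 2 or 1, and 6 without SPP1 guide 1 replicate 2 or SPP1 guide 3 replicate 1, and that between CDKN1A and SPP1 knockdown 5 or 4 without CDKN1A guide 2 replicate 1 or 2. Without CDKN1A guide 2, 3 members were called against KDM1A knockdown and 1 against SPP1 knockdown, and SMAD7 against SPP1 knockdown was at 0.33 (adjusted p = 0.365). Without KDM1A guide 2, 4 were called against CDKN1A knockdown, and SMAD7 in KDM1A against SPP1 knockdown was at 0.18 (adjusted p = 0.71). SMAD2 between CDKN1A and KDM1A knockdown was lost in 21 of 33 alternatives, and ACVR1 in 7. Between CDKN1A and SPP1 knockdown SMAD6 and SKIL were lost in 7 each, LTBP4 in 5 and ID2 in 4. Between KDM1A and SPP1 knockdown PMEPA1 was lost in 7 and SMAD7 in 6. Every other call between knockdowns was lost in 3 or fewer.

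Guides of 1 target differed in several of these genes. KDM1A guide 3 against guide 2 called 7 members, 21.9% beside 6.16% of all genes, CDKN1A guide 2 against guide 1 called 4, 12.5% beside 1.28%, SPP1 guide 1 against guides 2 and 3 called 6, 18.8% beside 3.90%, and control guide 2 against control guide 1 called 1, 3.12% beside 1.34%. With KDM1A guide 3, TGFB1 (-0.28), TGFB2 (-1.20), LTBP2 (-0.67), LTBP4 (-0.32), SMAD7 (log2 fold change -0.70 ± 0.08 SE, adjusted p = 7.32e-05) and TGFBI (-0.54) were lower than with guide 2, and TGFBR2 (log2 fold change 0.48 ± 0.06 SE, adjusted p = 0.000228) higher. With CDKN1A guide 2, LTBP2 (0.60), LTBP4 (0.38), SMAD7 (log2 fold change 0.74 ± 0.08 SE, adjusted p = 0.000284) and TGFBI (0.65) were higher than with guide 1. With SPP1 guide 1, BAMBI, TGFBR3 and SMURF2 were higher and ID2, LTBP4 and TGFBR2 lower than with guides 2 and 3.

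The targeted mRNA differed between the same guides. CDKN1A mRNA was at 70.6% of control with CDKN1A guide 2 and 46.3% with guide 1, and KDM1A mRNA at 43.4% with KDM1A guide 3 and 62.6% with guide 2. In both targets the guide that left less of the targeted mRNA also had the lower SMAD7, LTBP2, LTBP4 and TGFBI. In SPP1 knockdown the order differed by gene, where SPP1 mRNA was at 39.6% of control with guide 1, 79.6% with guide 2 and 66.8% with guide 3. SMAD7 was at 63.6%, 51.6% and 64.6% of control with guides 1, 2 and 3, LTBP2 at 68.9%, 80.5% and 66.3%, LTBP4 at 62.9%, 91.5% and 80.1%, and TGFBI at 77.6%, 82.6% and 68.7%. LTBP4 was thus lowest with the guide that left the least SPP1 mRNA, and SMAD7 with the one that left the most. With 2 or 3 guides a target, the part of the targeted mRNA in these differences was not tested.

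Each guide had 2 libraries. The chi-square per degree of freedom between them, over the genes tested, was 14.6 for SPP1 guide 3 and 9.52 for control guide 1. For the other guides it was 2.12 to 4.86. With 1 library of a guide left out, the lone library is assumed to vary like the other guides, although the guides did not vary alike. The KDM1A guide count of 7 was then 4 without KDM1A guide 2 replicate 1, guide 2 replicate 2 or guide 3 replicate 2, and the CDKN1A guide count of 4 was 2 without any of its 4 libraries, where SMAD7 and LTBP2 held. The SPP1 guide count of 6 was 2 without SPP1 guide 1 replicate 1, 0 without SPP1 guide 1 replicate 2 and 10 without SPP1 guide 3 replicate 1, and the control guide count of 1 was 0 without any of the 4 control libraries. The counts of all genes called between guides also moved widely with single libraries left out, so these swings are not particular to the members. Of the 18 calls between guides, 6 held under all 22 alternatives: SMAD7 and LTBP2 in both targets, and TGFB2 and TGFBR2 between the KDM1A guides. The ID2 call was lost in 14, the LTBP4 call between control guides in 5 and the other 10 in 1 to 4. Most of the 22 alternatives leave out a library of a guide outside the comparison. TGFB1 and TGFBI between KDM1A guides, and LTBP4 and TGFBI between CDKN1A guides, were lost without any of the 4 libraries compared.

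Against control, each guide called between 5 and 11 of the 32 members in a fit with 1 coefficient per guide. CDKN1A guide 1 called 9 (28.1%, beside 4.69% of all genes) and guide 2 called 7 (21.9%, beside 6.22%). KDM1A guide 2 called 5 (15.6%, beside 14.1%) and guide 3 called 11 (34.4%, beside 11.5%). SPP1 guides 1, 2 and 3 called 9 (28.1%, beside 4.58%), 7 (21.9%, beside 10.6%) and 11 (34.4%, beside 10.5%). This fit measures the spread between libraries of 1 guide and not between guides, so it calls genes that the fit by group does not. TGFBR2 passed with 6 of the 7 guides, all but KDM1A guide 2, and SMAD7 passed with the same 6, rising only with CDKN1A guide 2. All 7 guides are set against the same control libraries, so the level in those libraries bears on every guide. The 6 passes of either gene are therefore not independent of each other, and they are listed as a description.

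**Figure D4:**
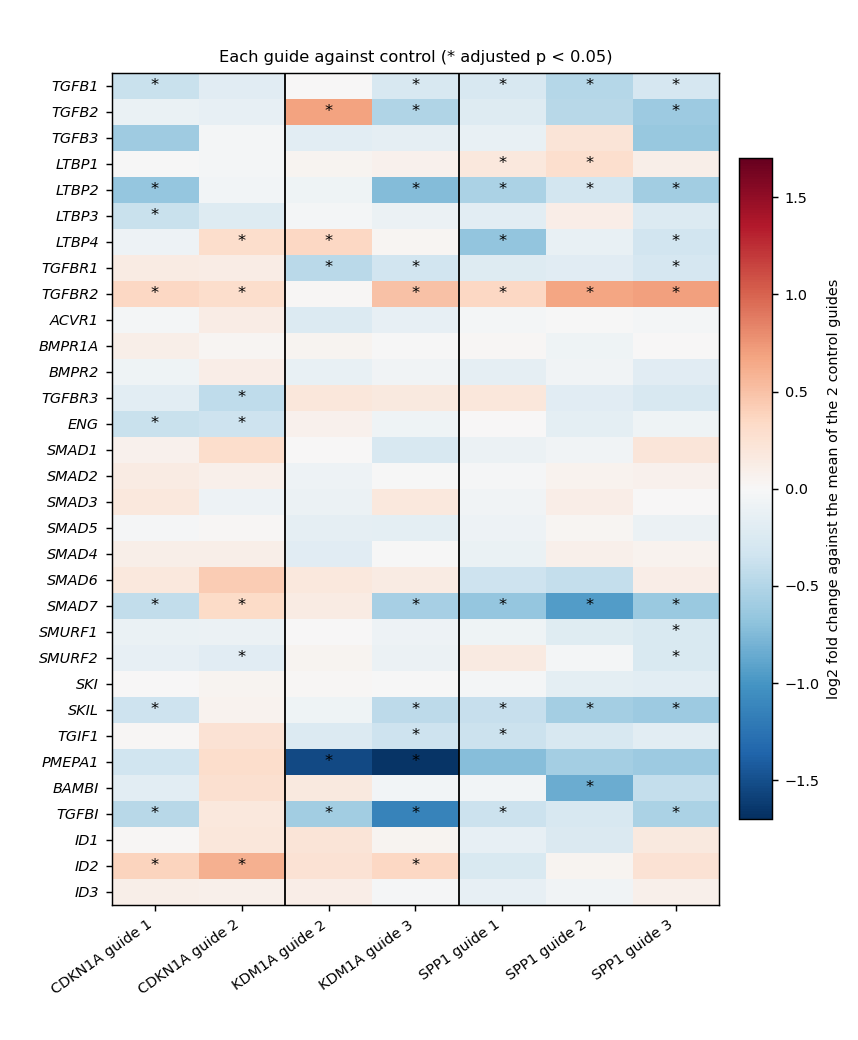
Log2 fold change of each of the 32 tested genes with each of the 7 guides against the mean of the 2 control guides, in blue for lower and red for higher, with a star for an adjusted p under 0.05. The PMEPA1 row is darkest under the KDM1A guides, at -1.53 and -1.67, and the SMAD7 row turns between the 2 CDKN1A guides.

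Beyond the 34 genes, a list of 40 genes known to be induced by TGF-beta in fibroblasts, 38 of them tested, had 28 of 38 below 0 in CDKN1A knockdown, 23 in KDM1A knockdown and 28 in SPP1 knockdown, where 51.1%, 52.6% and 48.9% of all genes lay below 0 in the same order. This list too was chosen with earlier results of these data known, so its shares are a description. Its median log2 fold changes were -0.25 in CDKN1A, -0.13 in KDM1A and -0.27 in SPP1 knockdown. In CDKN1A knockdown 4 fell and 1 rose (13.2%, beside 2.00% of all genes), in KDM1A knockdown 7 fell and 3 rose (26.3%, beside 9.06%) and in SPP1 knockdown 11 fell and 1 rose (31.6%, beside 5.46%).

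The cytokine IL11 fell in KDM1A (log2 fold change -0.82 ± 0.13 SE, adjusted p = 0.000376, held under all 33 alternatives) and CDKN1A knockdown (log2 fold change -0.65, adjusted p = 0.014), and was at -0.09 in SPP1 knockdown. The CDKN1A call of IL11 was lost without control guide 1 replicate 1 (adjusted p = 0.0544) and CDKN1A guide 2 replicate 2 (adjusted p = 0.0542). EDN1, which encodes the peptide endothelin, fell in SPP1 knockdown, where it had 46.2 to 70.4 CPM with a median of 51.8 against 114 to 136 CPM in control libraries (log2 fold change -1.16 ± 0.16 SE, adjusted p = 0.00184), and was lost there without control guide 1 (adjusted p = 0.0619). DACT1, a scaffold of WNT signalling, fell in KDM1A (log2 fold change -1.52 ± 0.29 SE, adjusted p = 0.00192) and SPP1 knockdown (log2 fold change -1.25 ± 0.25 SE, adjusted p = 0.00876). DACT1 had 2.53 and 2.93 CPM with KDM1A guide 2, 2.76 and 2.39 with KDM1A guide 3 and a median of 3.10 in SPP1 knockdown, against 10.4 and 10.5 with control guide 1 and 4.89 and 4.74 with control guide 2. Its control guides stood apart. Without control guide 1 its log2 fold change was -0.86 in KDM1A (adjusted p = 0.12) and -0.59 in SPP1 knockdown (adjusted p = 0.334). The SPP1 call was also lost without control guide 1 replicate 2 (adjusted p = 0.0535).

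The list held exceptions. The transcription factor SNAI1 (log2 fold change 1.07, adjusted p = 0.0127) and the cytokine LIF (log2 fold change 1.07, adjusted p = 0.0147) rose in KDM1A knockdown, and ANGPTL4, a secreted inhibitor of lipoprotein lipase, rose in CDKN1A (log2 fold change 0.78, adjusted p = 0.0202), KDM1A (log2 fold change 0.54, adjusted p = 0.0466) and SPP1 knockdown (log2 fold change 0.55, adjusted p = 0.0421). The SNAI1 call was lost without KDM1A guide 2 replicate 2 (adjusted p = 0.0586), and the LIF call without either library of control guide 1 (adjusted p = 0.0542 and 0.0579). The CDKN1A call of ANGPTL4 was lost without either library of control guide 1 or of CDKN1A guide 2 (adjusted p up to 0.0719). Its KDM1A call was lost in 16 of 33 alternatives, among them the loss of any KDM1A knockdown library, of either library of control guide 1 (adjusted p = 0.114 and 0.159), of control guide 2 replicate 2, of SPP1 guide 1 replicate 1 or of either library of SPP1 guide 2. Its SPP1 call was lost in 13 of 33, among them the loss of any library of SPP1 guides 2 and 3, of control guide 1 (adjusted p = 0.111 and 0.173) or of control guide 2 replicate 2. Of the 27 calls among induced genes in the 3 knockdowns, 19 were lost without at least 1 single library and 25 without control guide 1. Without control guide 1, the count of induced genes called was 0 in CDKN1A, 2 in KDM1A and 0 in SPP1 knockdown. With single libraries left out it ran over 1 to 6 in CDKN1A, 5 to 10 in KDM1A and 3 to 12 in SPP1 knockdown, lowest without CDKN1A guide 2 replicate 2 or control guide 1 replicate 1 in CDKN1A, without either library of control guide 1 in KDM1A, and without control guide 1 replicate 2 in SPP1 knockdown.

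**Figure D5:**
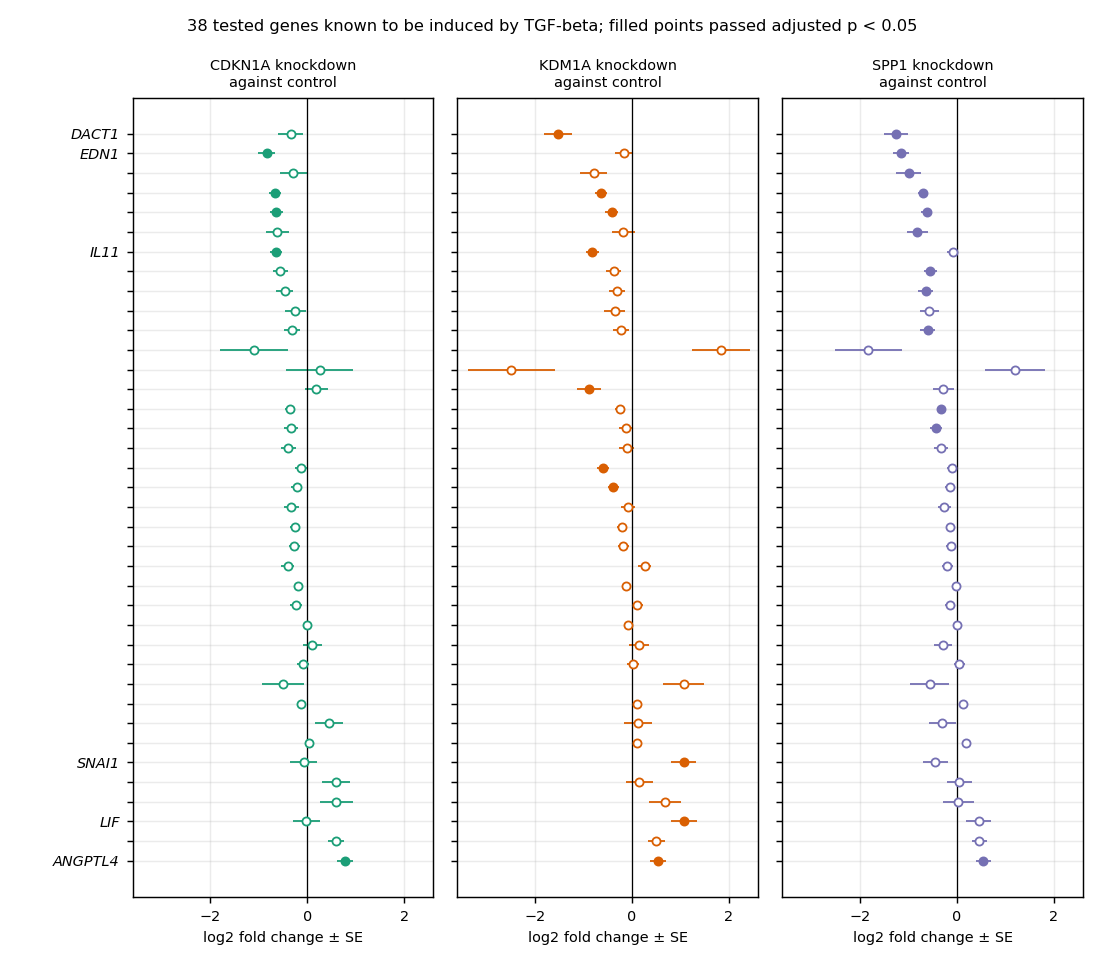
Log2 fold change with its standard error of the 38 tested TGF-beta induced genes in CDKN1A, KDM1A and SPP1 knockdown, each against the 4 control libraries, with filled points for an adjusted p under 0.05. Genes run from the lowest to the highest mean log2 fold change over the 3 panels, and those named in the text are labelled, with DACT1 at -1.52 in KDM1A and -1.25 in SPP1 knockdown near the low end and ANGPTL4 filled on the higher side in all 3 panels.

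The induced genes also differed between guides. KDM1A guide 3 against guide 2 called 24 of the 38 (63.2%, beside 6.16% of all genes), 22 lower and 2 higher, and CDKN1A guide 2 against guide 1 called 14 (36.8%, beside 1.28%), 13 higher and 1 lower. SPP1 guide 1 against guides 2 and 3 called 9, all higher (23.7%, beside 3.90%), and control guide 2 against control guide 1 called 7, all lower (18.4%, beside 1.34%), among them DACT1 (log2 fold change -1.12, adjusted p = 0.00391). With single libraries left out these counts ran over 17 to 27, 3 to 18, 6 to 14 and 1 to 14 in that order. The CDKN1A count was 3 to 5 when any of its own 4 libraries was left out. The control count was 1 without control guide 2 replicate 2.

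In the other lists, also chosen with earlier results known, the shares called ranged from none to 18.8% in the pooled knockdowns. Of 15 tested genes that hold or activate the latent ligand, FBN2 rose and ADAMTS1 fell in CDKN1A knockdown (13.3%, beside 2.00% of all genes), LRRC32 rose and ITGB3 fell in KDM1A knockdown (13.3%, beside 9.06%), and ITGB3 fell in SPP1 knockdown (6.67%, beside 5.46%). ITGB3, an integrin subunit that can bind the latent complex, was at log2 fold change -0.81, adjusted p = 0.0071 in KDM1A and log2 fold change -0.74, adjusted p = 0.0147 in SPP1 knockdown, and the SPP1 call was lost without either library of control guide 1 (adjusted p = 0.0603 and 0.0722). Of the other calls in this list, FBN2 was lost in 17 of 33 alternatives, ADAMTS1 in 9 of 33 and LRRC32 in 8 of 33, and each was lost when 1 of several single libraries was left out.

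Of 16 other receptors and antagonists 0 were called in CDKN1A knockdown by edgeR or DESeq2 (1 at an unadjusted p under 0.05), where 2.00% of all genes were called. In KDM1A knockdown FST and BMPER were called lower (12.5%, beside 9.06%), and in SPP1 knockdown 3 were lower, FSTL3 and NOG among them (18.8%, beside 5.46%). FST (follistatin), which binds activin, was at log2 fold change -0.99, adjusted p = 0.00445 in KDM1A knockdown. BMPER, a secreted modulator of BMP ligands, was at log2 fold change -0.37, adjusted p = 0.0467, and its call was lost in 22 of 33 alternatives, 12 of them single libraries left out. They include RLE scaling (adjusted p = 0.0533), a fit of these 2 groups alone (adjusted p = 0.111) and the transcript length offset, where BMPER was at -0.018 (adjusted p = 0.971). The NOG call was lost in 10 of 33 alternatives and the FSTL3 call in 5 of 33, both of them without either library of control guide 1.

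Of 27 SMAD partners 0 were called in CDKN1A knockdown by edgeR (2 by DESeq2, and 8 at an unadjusted p under 0.05), 3 in KDM1A knockdown (11.1%, beside 9.06%) and 1 in SPP1 knockdown (3.70%, beside 5.46%). Among them CAV1 (caveolin, which takes part in receptor internalization) was higher in KDM1A (log2 fold change 0.32, adjusted p = 0.00868) and SPP1 knockdown (log2 fold change 0.31, adjusted p = 0.0131), the SPP1 call lost without either library of control guide 1 (adjusted p = 0.0551 and 0.0633). With the transcript length offset both calls of CAV1 were lost (adjusted p = 0.0687 in KDM1A and 0.0827 in SPP1 knockdown). Of 14 other BMP induced genes UNC5B was higher in CDKN1A knockdown (7.14%, beside 2.00% of all genes) and ATOH8 higher in KDM1A knockdown (7.14%, beside 9.06%), and 2 were lower in SPP1 knockdown, NOG among them (14.3%, beside 5.46%). The UNC5B call was lost in 7 of 33 alternatives and the ATOH8 call in 2 of 33. Of the 16 calls in these 4 lists, each gene counted once, 12 were lost without at least 1 single library, and 15 without control guide 1.

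The lists were also read by single guides, in the fit whose spread is between libraries of 1 guide. KDM1A guide 3 against control called 8 of the 15 latent ligand genes (53.3%), 8 of the 16 other receptors and antagonists (50%), 6 of the 14 BMP induced genes (42.9%) and 2 of the 27 SMAD partners (7.41%), beside 11.5% of all genes. KDM1A guide 3 against guide 2 called 7 of the 15 (46.7%) and 6 of the 16 (37.5%), beside 6.16%, and 1 each of the 14 and the 27. CDKN1A guide 1 against control also called 8 of the 15 latent ligand genes (53.3%, beside 4.69%). The other guides against control called 4 to 6 of the 15, 1 to 6 of the 16, 1 to 4 of the 14 and 1 to 5 of the 27. Of all genes these guides called 4.58% (SPP1 guide 1) to 14.1% (KDM1A guide 2). KDM1A guide 2 called 40% of the 15 and 25% of the 16, but 14.3% of the 14 and 18.5% of the 27, both near its 14.1%.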

How the data were processed

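RNA-seq of 18 hiF-T libraries was analysed from the deposited transcript tables. Per the file headers each of the 188753 transcripts has an estimated count, an effective length and a TPM value, and the authors made these with kallisto on hg38 (GRCh38), per the submitters' processing notes, which give no version or strand setting. Deposited estimated counts and deposited TPM were summed per gene with GENCODE 29, which matched 169797 transcripts (90%), and the 18956 unmatched ones held 2.49 to 2.62% of counts and were left out.

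Gene counts were rounded to whole numbers, filtered by group with a count minimum of 10 and scaled by TMM. The 13527 genes left were tested with the quasi-likelihood test of edgeR 4.0.16 (limma 3.58.1, R 4.3.3), with 1 coefficient per group or, between guides, 1 per guide, and Benjamini-Hochberg adjustment over all of them, with a threshold of 0.05 on the adjusted p. SE is the log2 fold change divided by the square root of F. The biological coefficient of variation was 9.32% within groups and 6.92% within guides, and totals of 11907197 to 17016094 estimated counts bound the precision of low genes. The code was tested on simulated data. DESeq2 1.42.0 was 1 alternative, beside RLE scaling, no filter, a replicate block, each library or guide left out, 2 groups alone and a transcript length offset.

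Members and lists were chosen with earlier results of these data known. Full values are given for members called in a knockdown against control or between guides, and the other lists by counts and up to 8 called genes of smallest p. The alternatives for the other lists were chosen after seeing the data. Promoters are from RefSeq (GRCh38.p14), searched for exact letters. Some genes of the other lists are counted but not reported singly here.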

Additional observations from a re-analysis of the deposited data

Results flagged for a closer look

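In 5 of 128 group and gene pairs 1 library stood apart from the rest of its group, by a gap to its nearest neighbour that, divided by the group's range, passed Dixon's critical value for 4 or 6 libraries. By the level of that rule, chance would set apart about 1 in 20 groups. ACVR1 was at 55.6 CPM in KDM1A guide 3 replicate 1 and between 48.2 and 49.1 CPM in the other KDM1A knockdown libraries. SMAD2 was at 68.2 CPM in SPP1 guide 1 replicate 1 and between 75.5 and 77.8 CPM in the other 5, and SMAD6 at 33.0 CPM in SPP1 guide 3 replicate 1 and between 16.9 and 20.003 CPM in the other 5. BMPR2 was at 249 CPM in control guide 1 replicate 2 and between 218.6 and 219.7 CPM in the other control libraries, and SMAD1 at 9.78 CPM in control guide 2 replicate 1 and between 11.3 and 11.6 CPM.

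Guides of the same target differed in 18 tests of the difference itself, by edgeR's quasi-likelihood test adjusted over all genes. The log2 fold changes of KDM1A guide 3 over guide 2 were those of TGFB1 (-0.28, adjusted p = 0.0338), TGFB2 (-1.20, adjusted p = 0.000486), LTBP2 (-0.67, adjusted p = 8.45e-05), LTBP4 (-0.32, adjusted p = 0.0197), SMAD7 (-0.70, adjusted p = 7.32e-05), TGFBI (-0.54, adjusted p = 0.0102) and TGFBR2 (0.48, adjusted p = 0.000228). Those of CDKN1A guide 2 over guide 1 were LTBP2 (0.60, adjusted p = 0.000918), LTBP4 (0.38, adjusted p = 0.0184), SMAD7 (0.74, adjusted p = 0.000284) and TGFBI (0.65, adjusted p = 0.00799). Those of SPP1 guide 1 over guides 2 and 3 were BAMBI (0.58, adjusted p = 0.0223), ID2 (-0.41, adjusted p = 0.039), LTBP4 (-0.45, adjusted p = 0.0027), SMURF2 (0.30, adjusted p = 0.00252), TGFBR2 (-0.33, adjusted p = 0.00336) and TGFBR3 (0.43, adjusted p = 0.0138). Control guide 2 over control guide 1 gave LTBP4 (-0.38, adjusted p = 0.023). Each guide had 2 libraries, and what else differed between guides was not tested.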

How the results depend on the processing

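No member called between groups or guides changed direction under any of the 33 alternatives for groups or 22 for guides. Counts of members called that moved by over 1.5 times are as follows. CDKN1A knockdown against control, 1 as reported, gave 4 with DESeq2, 2 with no filter, 5 in a fit of these 2 groups alone, 0 with a transcript length offset, 0 without control guide 1, CDKN1A guide 1 or CDKN1A guide 2, 2 without KDM1A guide 2, KDM1A guide 3, SPP1 guide 1 or SPP1 guide 2, and 3 without SPP1 guide 3. KDM1A knockdown against control, 4 as reported, gave 2 without control guide 1 and 2 with the length offset. SPP1 knockdown against control, 7 as reported, gave 0 without control guide 1 and 2 without SPP1 guide 2. CDKN1A against KDM1A knockdown (8) gave 3 without CDKN1A guide 2 and 4 without KDM1A guide 2, and CDKN1A against SPP1 knockdown (9) gave 1 without CDKN1A guide 2 and 5 with the length offset. KDM1A against SPP1 knockdown (3) gave 6 with DESeq2, 1 without KDM1A guide 2 or SPP1 guide 2, 6 without KDM1A guide 3, 7 without SPP1 guide 1 and 8 without SPP1 guide 3. With no filter the CDKN1A guides gave 7 (4 as reported) and the control guides 5 (1 as reported), and with DESeq2 the control guides gave 3. The cause was not tested. With 1 library left out the counts ran over 0 to 3 in CDKN1A, 3 to 5 in KDM1A and 2 to 8 in SPP1 knockdown against control, 6 to 10 for CDKN1A against KDM1A, 4 to 11 for CDKN1A against SPP1, 1 to 6 for KDM1A against SPP1, 4 to 9 between KDM1A guides, 2 to 6 between CDKN1A guides, 0 to 10 between SPP1 guides and 0 to 5 between control guides. Counts of all genes called moved as well with 1 library left out. Against control they ran over 52 to 446 in CDKN1A, 778 to 1447 in KDM1A and 187 to 752 in SPP1 knockdown. As reported they were 271, 1225 and 738. Replicate numbers did not pair libraries: over 36 pairs of guides the correlation of same-numbered deviations ran from -0.206 to 0.0951. With the replicate block the counts were the same 1, 4, 7, 8, 9, 3, 7, 4 and 1, and 5 in place of 6 between SPP1 guides, where ID2 was lost (adjusted p = 0.05). Of 43 calls in the other lists the block ended 8, among them ANGPTL4 in KDM1A (adjusted p = 0.0542) and SPP1 knockdown (0.0523), BMPER in KDM1A (0.0587) and FBN2 in CDKN1A knockdown (0.0605). Depth limits PMEPA1, TGFB3 and BAMBI most among tested members.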
